A study of Homo sapiens with 16 samples.

Results

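The inhibitor of DNA binding proteins and the SMADs of bone morphogenetic protein (BMP) signalling were followed here through 10 of the 18132 genes named on the array: ID1, ID2, ID3, ID4, SMAD1, SMAD5, SMAD9, SMAD6, SMAD7 and BAMBI. They were found as the probe sets that the array annotation assigns to one of these symbols and to no other gene, which gave 27 of the 44988 single-gene probe sets on the array (49293 probe sets in all). A probe set was tested when 4 or more of the 16 arrays put it at or over their own 40th percentile. Of the 27 probe sets, 26 passed, covering 9 genes, and the single SMAD9 probe set did not. The number of tested probe sets was 3 for ID1, 2 for ID2, 3 for ID3, 4 for ID4, 2 for SMAD1, 5 for SMAD5, 3 for SMAD6, 3 for SMAD7 and 1 for BAMBI.

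The cells were HEK293, a human embryonic kidney line, transfected for 24 h with 500 ng of an expression plasmid for the mineralocorticoid receptor (MR, the aldosterone receptor, gene NR3C2) per well. All 4 groups carried the plasmid, so no group lacked the transfected receptor. For the next 4 h they received vehicle, 100 nM DOC (the MR agonist deoxycorticosterone), 10 nM PMA (phorbol myristate acetate, an activator of protein kinase C) or both agents together (DOC plus PMA), and RNA from 4 samples a group was hybridised to Affymetrix PrimeView arrays. The samples are labelled biological replicates, but no source says that they came from separate cultures, so p-values measure the spread between these samples. A lower signal in such bulk RNA does not tell fewer expressing cells from less RNA per cell.

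BMP ligands bind paired serine/threonine kinase receptors, which phosphorylate the receptor-regulated SMADs encoded by SMAD1, SMAD5 and SMAD9. These join SMAD4 and enter the nucleus, where ID1, ID2, ID3, SMAD6, SMAD7 and BAMBI are among the best known targets. SMAD6, SMAD7 and BAMBI are feedback inhibitors of the pathway, and ID proteins bind E proteins and keep them from DNA.

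The 250 bases upstream of the annotated start were examined for all 10 genes, in 16 windows (RefSeq, GRCh38.p14). Those of SMAD6 and ID3, the genes with the deepest falls below, of ID1, and of ID4, whose probe sets went both ways, are printed 5′ to 3′ on the strand of the gene. Capitals mark the matches, on either strand, to 5 motifs: the SMAD palindrome GTCTAGAC, the GC-rich BMP SMAD element GGCGCC, the AP-1 site TGANTCA, the EGR site GCGNGGGCG and the TATA box TATAAA. Overlapping matches run together as 1 stretch of capitals, as do the EGR matches of ID4 nearest to the start and the TATA matches on opposite strands of ID1.
SMAD6, chr15:66701986-66702235, plus strand: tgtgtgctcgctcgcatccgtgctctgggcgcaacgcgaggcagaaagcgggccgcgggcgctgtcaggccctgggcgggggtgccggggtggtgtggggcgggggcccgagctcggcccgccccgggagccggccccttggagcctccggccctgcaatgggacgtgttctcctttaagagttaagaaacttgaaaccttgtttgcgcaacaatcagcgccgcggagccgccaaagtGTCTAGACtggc
ID3, chr1:23559502-23559751, minus strand: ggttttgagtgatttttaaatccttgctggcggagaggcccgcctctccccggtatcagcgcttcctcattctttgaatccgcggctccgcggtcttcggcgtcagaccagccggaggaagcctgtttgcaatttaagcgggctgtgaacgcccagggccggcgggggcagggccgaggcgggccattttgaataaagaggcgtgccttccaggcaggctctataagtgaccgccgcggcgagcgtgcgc
ID1, chr20:31605039-31605288, plus strand: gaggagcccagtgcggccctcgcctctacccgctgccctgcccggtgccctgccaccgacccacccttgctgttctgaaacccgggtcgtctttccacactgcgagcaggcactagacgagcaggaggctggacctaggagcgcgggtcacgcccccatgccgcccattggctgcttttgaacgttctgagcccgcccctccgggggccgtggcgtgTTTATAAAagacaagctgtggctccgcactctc
ID4, chr6:19837120-19837369, plus strand: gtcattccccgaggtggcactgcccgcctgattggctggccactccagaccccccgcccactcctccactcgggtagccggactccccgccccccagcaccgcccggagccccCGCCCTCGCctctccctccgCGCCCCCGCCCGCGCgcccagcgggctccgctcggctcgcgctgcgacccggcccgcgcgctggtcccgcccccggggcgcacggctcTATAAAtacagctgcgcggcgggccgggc

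The SMAD6 window held GTCTAGAC at 12 to 5 bases before the start, a motif present in 64 of 35116 windows of the same length over all genes (0.182%). The ID4 window held 3 EGR matches, a motif found in 8.41% of all windows, and a TATA box, found in 10.7%. The ID1 window held TATA matches on both strands, and the ID3 window held none of the 5 motifs. The EGR site also occurred upstream of ID2 and SMAD9. The letters TATAAA occurred in a window of SMAD7, at 35 to 30 bases before the start. A window of SMAD1 held them on the opposite strand, at 225 to 220 bases before the start. The element GGCGCC, present in 16.4% of all windows, occurred 3 times upstream of BAMBI and in windows of SMAD1. The AP-1 site, present in 6.57%, occurred among the members in 1 of the SMAD1 windows. These matches describe the letters of the windows and are not measured binding sites.

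Signals are the deposited log2 values of robust multi-array averaging (RMA), whose medians lay between 4.91 and 4.96 on the 16 arrays. A log2 difference of 1 is a doubling of signal. Tests are limma's moderated test over 28226 single-gene probe sets with the spread pooled over all 4 groups, and adjusted p-values are Benjamini-Hochberg values with a threshold of 0.05. Both agents acted on genes known to respond to them: the PMA-minus-vehicle difference was 5.65 for FOS, and the DOC-minus-vehicle difference was 1.92 for PDK4, 0.93 for SGK1 and 0.58 for FKBP5. NR3C2 itself read 7.43 with vehicle, 7.38 with DOC, 7.21 with PMA and 7.02 with DOC plus PMA. It was lower past the threshold for DOC plus PMA against DOC. It did not pass for PMA against vehicle, DOC against vehicle or DOC plus PMA against PMA. Whether its probes read the plasmid transcript was not checked. Of 7 genes that mark HEK293 cells, 7 were tested and 6 lay above the array medians, PAX2 being the exception. That list summed to 9087 to 10855 linear units with vehicle and 11121 to 13466 with PMA, and with PMA 4 of the 7 were higher and 1 was lower. Of 5 leukocyte markers, PTPRC, CD3E and CD14 were below the filter and 2 were tested, of which 2 were higher and 0 lower with PMA. The leukocyte list summed to 64.1 to 74.1 linear units with vehicle and 79.4 to 86.9 with PMA. Of 5 endothelial markers 4 were tested, of which 2 were higher and 1 was lower with PMA, and the list summed to 110.4 to 123 linear units with vehicle and 121 to 131 with PMA. Of 5 fibroblast markers 2 were tested and 0 passed, with sums of 54.2 to 60.9 and 53.8 to 63.2. The part of these shifts in the results was not tested. A set of 3 arrays shared their departures from the group means (correlations of 0.42 to 0.55 across 12495 genes, which are not independent). They were replicate 2 of PMA, replicate 1 of DOC and replicate 2 of DOC plus PMA. Member calls that changed when they were left out together are given with and without them.

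PMA changed 23 of the 26 member probe sets, most of them downward. By the brightest probe set of each gene, 7 of the 9 tested genes fell against vehicle (ID1, ID2, ID3, SMAD1, SMAD5, SMAD6 and BAMBI) and 2 rose (ID4 and SMAD7). Over all 12495 genes tested in that way 28.0% were lower and 16.6% higher. By probe set, 18 of 26 members were lower and 5 higher, where 24.7% and 16.5% of all probe sets were. The median PMA difference of the 26 was -0.62, against -0.04 for all probe sets. Of all called probe sets, 40.1% were higher, a share that became 49.3% after cyclic loess and 56.0% after setting the arrays to a common median. The split of the members, 5 higher and 18 lower, was the one found under both scalings.

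The same question was asked in separate arrays by setting DOC plus PMA against DOC. There 16 probe sets were lower and 5 higher, in a background of 21.2% and 15.6%, and the same 7 genes fell and 2 rose. The median was -0.51, against -0.03 for all probe sets. Against vehicle, DOC plus PMA gave 18 lower and 4 higher, in a background of 22.2% and 15.9%. Leaving out the 3 arrays named above gave 18 lower and 6 higher for PMA against vehicle, and 16 lower and 4 higher for DOC plus PMA against DOC.

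**Figure D1:**
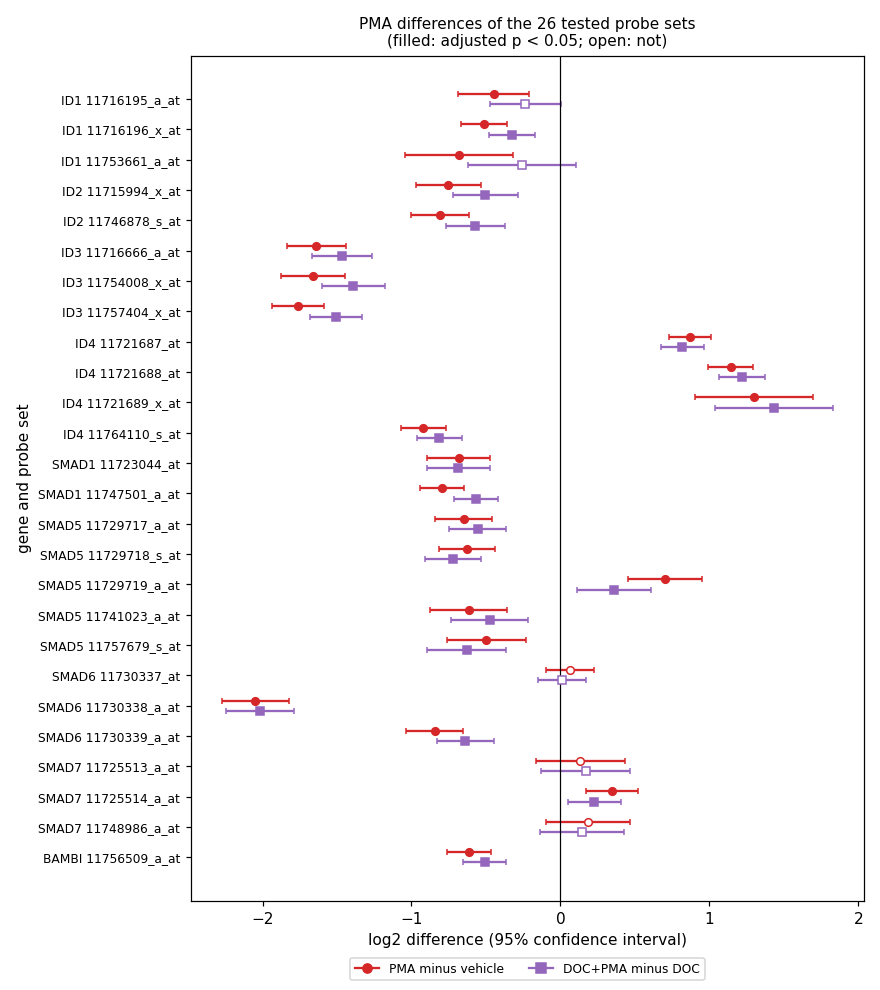
Log2 differences between PMA-treated and matched untreated groups for each tested probe set, with 95% confidence intervals. Circles show PMA minus vehicle and squares DOC plus PMA minus DOC, filled where the adjusted p is under 0.05. SMAD6 and ID3 lie farthest to the left, at -2.05 and -1.76, and 3 ID4 probe sets farthest to the right.

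The ID gene with the largest PMA difference was ID3. On its brightest probe set (11757404_x_at) the vehicle arrays read 8.94, 8.997, 9.04 and 8.90, and the DOC arrays 8.87, 8.84, 8.98 and 8.86. With PMA the arrays read 7.03, 7.14, 7.26 and 7.39, and with DOC plus PMA 7.44, 7.19, 7.49 and 7.41. Every array with PMA thus lay below every array without it, by more than 1 log2 unit. The PMA difference was -1.76 ± 0.08 (SE; adjusted p = 3.52e-11), a 3.40-fold lower signal, and DOC plus PMA against DOC gave -1.50 ± 0.08 (adjusted p = 3.30e-10). The other ID3 probe sets fell too, with differences of -1.64 and -1.66 for PMA alone. Ranked by the signed difference, ID3 had the 12th largest fall of the 12495 genes with PMA alone and the 22nd in the presence of DOC.

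ID2 fell as well. Its brightest probe set (11746878_s_at) read 9.83, 9.88, 9.90 and 10.07 with vehicle and 10.08, 9.86, 10.02 and 9.99 with DOC. It read 8.85, 9.18, 9.20 and 9.21 with PMA and 9.47, 9.28, 9.33 and 9.58 with DOC plus PMA. The arrays without PMA overlapped each other, and the PMA arrays lay below the DOC plus PMA arrays. The difference of DOC plus PMA from PMA did not pass (0.31 ± 0.09, adjusted p = 0.614). The PMA difference was -0.81 ± 0.09 (adjusted p = 2.57e-06) and that of DOC plus PMA against DOC -0.57 ± 0.09 (adjusted p = 0.000112). The other ID2 probe set (11715994_x_at) gave -0.75 and -0.51.

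ID1, the ID gene most used as a readout of BMP receptor activity, also fell. Its brightest probe set (11716196_x_at) read 8.86, 8.72, 8.72 and 8.62 with vehicle and 8.54, 8.49, 8.48 and 8.40 with DOC. With PMA it read 8.16, 8.17, 8.20 and 8.34, and with DOC plus PMA 8.19, 8.02, 8.27 and 8.12. The vehicle arrays were the highest, the DOC arrays came next without overlap, and the groups with PMA overlapped each other below both. The DOC difference from vehicle did not pass (-0.25 ± 0.07), and on 11716195_a_at these ranges overlapped. How many of all probe sets separate between DOC and vehicle was not counted. The PMA difference was -0.51 ± 0.07 (adjusted p = 2.55e-05) and that of DOC plus PMA against DOC -0.33 ± 0.07 (adjusted p = 0.00197). With PMA alone the other ID1 probe sets also fell, with differences of -0.45 (11716195_a_at) and -0.68 (11753661_a_at). In the presence of DOC these gave -0.24 and -0.26 and did not pass (adjusted p = 0.113 and 0.273). The first passed without DOC replicate 4, at -0.36 (adjusted p = 0.00802). Without the 3 arrays that deviated together, 11753661_a_at gave -0.49 with PMA alone (adjusted p = 0.000599). The brightest probe set then gave -0.26 in the presence of DOC (adjusted p = 0.0148).

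ID4 went the other way on its brightest probe set (11721688_at), which read 10.74, 10.82, 10.78 and 10.87 with vehicle and 10.52, 10.70, 10.64 and 10.78 with DOC. With PMA it read 11.999, 11.78, 12.03 and 11.97, and with DOC plus PMA 11.81, 11.87, 11.91 and 11.92. All 8 arrays with PMA lay above all 8 without it. The differences were 1.14 ± 0.07 (adjusted p = 2.00e-09), a 2.21-fold higher signal, and 1.22 ± 0.07 in the presence of DOC (adjusted p = 8.70e-10). The probe sets 11721687_at and 11721689_x_at rose too, by 0.87 and 1.30 with PMA alone.

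The remaining ID4 probe set, 11764110_s_at, fell. It read 9.42, 9.46, 9.53 and 9.65 with vehicle, 9.51, 9.49, 9.42 and 9.58 with DOC, 8.53, 8.57, 8.57 and 8.71 with PMA, and 8.77, 8.71, 8.56 and 8.71 with DOC plus PMA. Its PMA difference was -0.92 ± 0.07 (adjusted p = 2.09e-08), and -0.81 ± 0.07 in the presence of DOC (adjusted p = 1.08e-07). Affymetrix gives the ending _s_at to probe sets that can match transcripts of more than one gene, _x_at to those with probes similar to other sequences, and _a_at to those matching several transcripts of one gene. Which ID4 transcripts each probe set reads was not determined here. Averaging the ID4 probe sets, which mixes both directions, gave 0.60 (adjusted p = 5.01e-07).

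**Figure D2:**
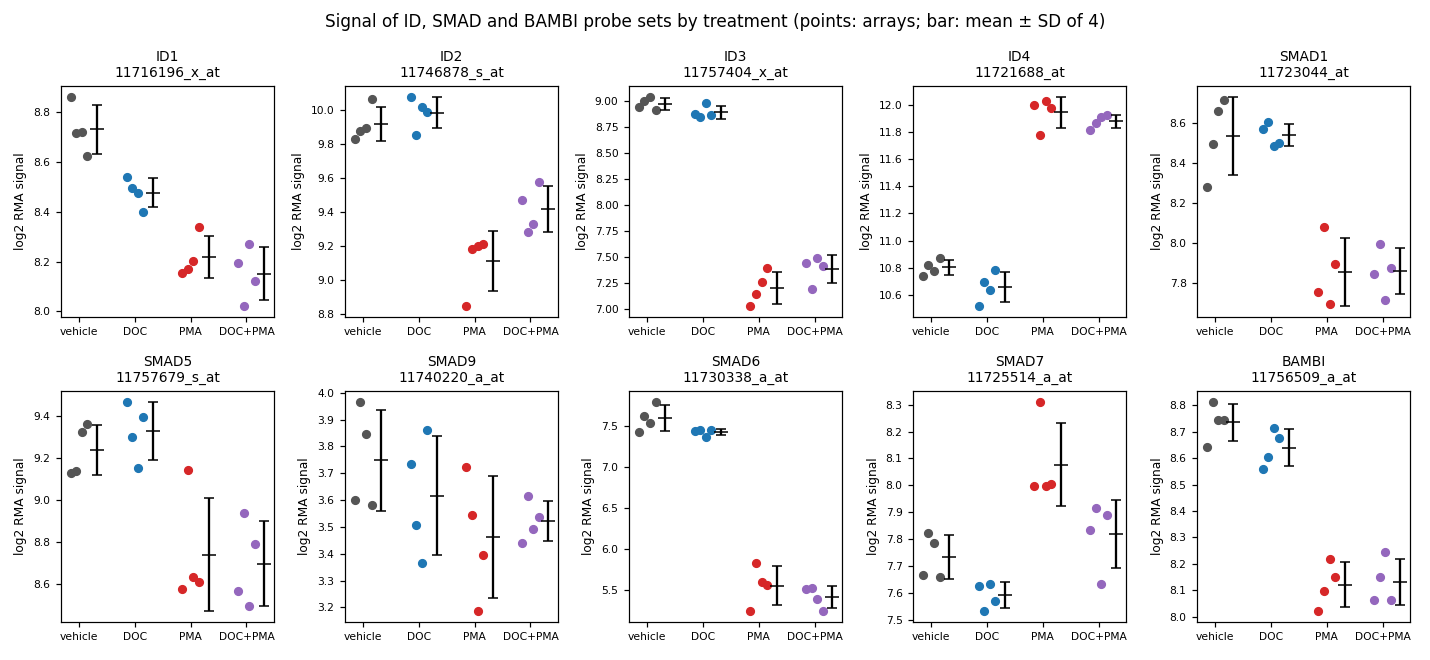
Log2 RMA signal of the brightest probe set of each gene in each of the 16 arrays, by treatment; points are arrays and the bars show the mean ± SD of 4, with a separate scale in each panel. ID3 and SMAD6 fell with PMA with or without DOC, ID4 rose, and the SMAD9 probe set stayed below the filter.

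The receptor-regulated SMADs that could be tested both fell. SMAD1 on 11723044_at read 8.28, 8.50, 8.66 and 8.72 with vehicle and 8.57, 8.61, 8.49 and 8.50 with DOC. It read 7.75, 8.08, 7.69 and 7.90 with PMA and 7.84, 7.997, 7.72 and 7.87 with DOC plus PMA. No array with PMA reached any array without it, and DOC left the ranges overlapping at either level. The differences were -0.68 ± 0.10 with PMA alone (adjusted p = 3.43e-05) and also -0.68 ± 0.10 in the presence of DOC (adjusted p = 3.76e-05). The other SMAD1 probe set (11747501_a_at) gave -0.80 ± 0.07 and -0.57 ± 0.07.

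SMAD5 was lower on 4 of its 5 probe sets. On the brightest (11757679_s_at) the arrays read 9.13, 9.14, 9.32 and 9.36 with vehicle and 9.47, 9.30, 9.15 and 9.40 with DOC. With PMA they read 8.58, 9.15, 8.63 and 8.61, and with DOC plus PMA 8.57, 8.94, 8.50 and 8.79. PMA replicate 2 lay within the vehicle range and the other PMA arrays well below it. The PMA difference was -0.50 ± 0.12 (adjusted p = 0.00401), and -0.63 (adjusted p = 5.14e-05) without the 3 arrays that deviated together. Probe sets 11729717_a_at, 11729718_s_at and 11741023_a_at fell too, with differences of -0.65, -0.63 and -0.62.

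The remaining SMAD5 probe set, 11729719_a_at, rose with PMA. Its values were 6.15, 6.20, 5.94 and 5.79 with vehicle, 6.35, 6.17, 6.07 and 6.44 with DOC, 6.94, 6.69, 6.76 and 6.48 with PMA, and 6.73, 6.78, 6.49 and 6.46 with DOC plus PMA. Arrays with PMA lay above their counterparts without it. The differences were 0.70 ± 0.12 (adjusted p = 0.000141) and, in the presence of DOC, 0.36 ± 0.12 (adjusted p = 0.0243). The latter no longer passed without DOC replicate 2 (0.33), DOC replicate 3 (0.29), DOC plus PMA replicate 1 (0.32), DOC plus PMA replicate 2 (0.30) or the 3 arrays that deviated together (0.33, adjusted p = 0.0714). SMAD9, which encodes the protein also called SMAD8, read between 3.19 and 3.97 in the 16 arrays, below the filter level (4.05 to 4.12) in each, and no change is reported for it.

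The inhibitory SMADs moved apart. SMAD6, the inhibitor that acts mainly on the BMP arm, fell further than any other member. On 11730338_a_at, its brightest probe set, the vehicle arrays read 7.43, 7.63, 7.54 and 7.80 and the DOC arrays 7.45, 7.45, 7.36 and 7.45. The PMA arrays read 5.24, 5.83, 5.59 and 5.55 and the DOC plus PMA arrays 5.503, 5.52, 5.38 and 5.24. The lowest array without PMA lay more than 1 log2 unit above the highest array with it. The difference was -2.05 ± 0.11 with PMA alone (adjusted p = 1.70e-10), a 4.13-fold lower signal, and -2.02 ± 0.11 in the presence of DOC (adjusted p = 2.22e-10). This was the 4th largest fall of the 12495 genes with PMA alone and the 5th in the presence of DOC.

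The other SMAD6 probe sets reported less. On 11730339_a_at the arrays read 4.21, 4.39, 4.26 and 4.22 with vehicle, 3.83, 4.18, 4.22 and 4.27 with DOC, 3.30, 3.46, 3.50 and 3.44 with PMA, and 3.37, 3.44, 3.59 and 3.55 with DOC plus PMA. This probe set fell by 0.84 ± 0.09 with PMA alone (adjusted p = 1.35e-06) and by 0.64 ± 0.09 in the presence of DOC (adjusted p = 3.22e-05), with no overlap between arrays with and without PMA. It reached the filter level in 7 of 16 arrays, none of them with PMA, so it was tested only through the groups where it was high.

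On 11730337_at nothing passed. Its values were 4.15, 4.12, 4.12 and 3.92 with vehicle, 4.19, 4.30, 3.99 and 4.10 with DOC, 4.14, 4.07, 4.22 and 4.13 with PMA, and 4.15, 4.03, 4.20 and 4.23 with DOC plus PMA. All 4 groups overlapped. The PMA difference was 0.07 ± 0.08 (adjusted p = 0.531; 95% interval -0.10 to 0.23) and 0.01 ± 0.08 in the presence of DOC (adjusted p = 0.934). It reached the filter level in 12 of 16 arrays. Both of the dimmer SMAD6 probe sets thus read within about 1 log2 unit of the filter level and below the median of every array, and no detection call was used that would set them apart from background.

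The disagreement between SMAD6 probe sets was measured within each array, as the log2 signal of one minus that of another. A shift common to all probe sets of an array cancels in this gap, but scaling that varies with the signal does not. Against vehicle, PMA changed the gap between 11730338_a_at and 11730337_at by -2.11 and that between 11730338_a_at and 11730339_a_at by -1.203. The gap between 11730337_at and 11730339_a_at changed by 0.91. In the exact permutation test over the 70 splits of 8 arrays, each gave the smallest two-sided p the design allows (0.0286), as did 11 of the 30 pairs of probe sets within a member. Adjusted over the 30 pairs the value was 0.0779, so 0 pairs passed, and with DOC plus PMA against DOC 12 pairs stood at the smallest p (adjusted p = 0.0714).

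The same gaps were therefore also fitted with limma across all 15709 probe sets of the array that share a gene with a brighter one, an alternative added after the data had been seen. In that fit 12.8% of probe sets changed with PMA unlike the brightest of their gene, and 4 of 17 did among the members. These were 11730337_at and 11730339_a_at of SMAD6 (2.11 ± 0.14 and 1.203 ± 0.13 above the change of 11730338_a_at; adjusted p = 2.00e-07 and 1.60e-05), 11729719_a_at of SMAD5 (1.197 ± 0.17 above; adjusted p = 0.000148) and 11764110_s_at of ID4 (-2.06 ± 0.08; adjusted p = 5.61e-10). With DOC plus PMA against DOC the count was 5 of 17, in a background of 12.6%, the addition being 11721687_at of ID4, whose rise was smaller than that of 11721688_at (-0.40, adjusted p = 0.0151). The dimmer SMAD6 probe sets read near the filter level already without PMA, and 11730339_a_at reached it only there. The part of a floor in the signal in these SMAD6 gaps was not tested. Averaging the 3 SMAD6 probe sets gave -0.94 in place of -2.05. Probe sets called in both directions occurred in 2 of the 8 members with several tested probe sets (ID4 and SMAD5), and in 2.72% of the 7495 such genes on the array. That share was not matched for the number of tested probe sets a gene, which was 4 for ID4 and 5 for SMAD5.

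**Figure D3:**
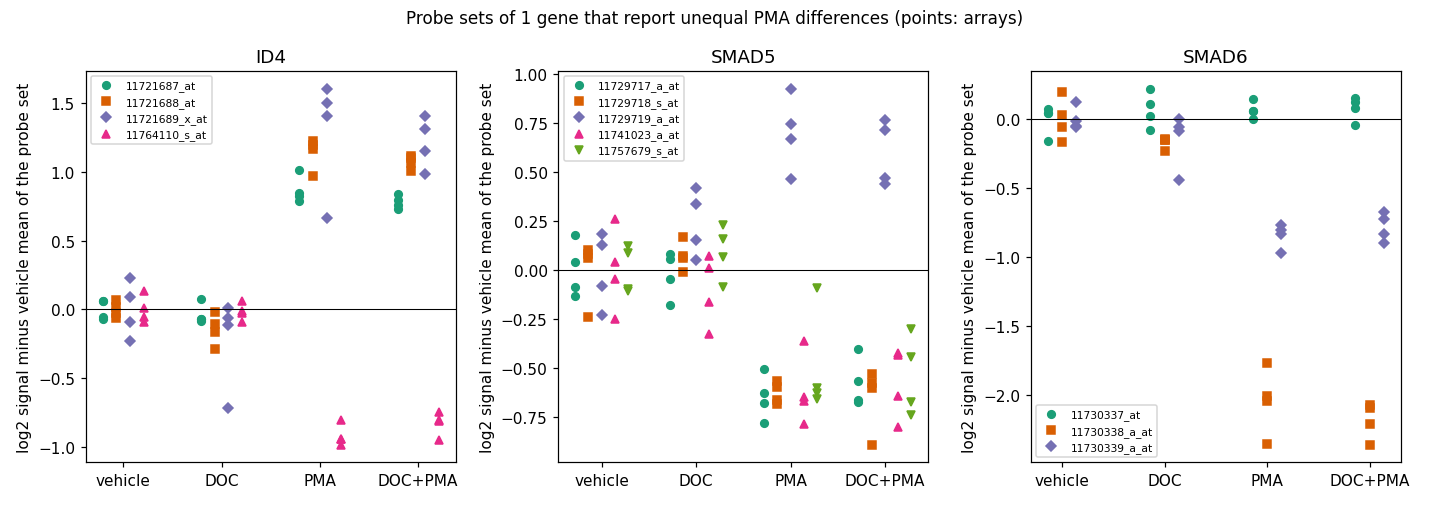
Log2 signal of each tested probe set of ID4, SMAD5 and SMAD6 minus its own vehicle mean, in every array and by treatment. With PMA, 3 ID4 probe sets lie above 0 and 1 below, 4 SMAD5 probe sets lie below and 1 above, and the SMAD6 probe sets spread between no change and -2.05.

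SMAD7, the inhibitory SMAD that acts on both the BMP and the TGF-beta arm, was higher with PMA on its brightest probe set (11725514_a_at). The arrays read 7.67, 7.82, 7.79 and 7.66 with vehicle, 7.63, 7.53, 7.63 and 7.57 with DOC, 7.997, 8.31, 7.999 and 8.003 with PMA, and 7.84, 7.92, 7.63 and 7.89 with DOC plus PMA. The PMA arrays lay above all others, while DOC plus PMA overlapped both DOC and vehicle. The difference of DOC plus PMA from PMA did not pass (-0.26 ± 0.08, adjusted p = 0.759). The PMA difference was 0.34 ± 0.08 (adjusted p = 0.00311), and 0.27 (adjusted p = 0.00926) without PMA replicate 2. In the presence of DOC it was 0.23 ± 0.08 (adjusted p = 0.0402), which no longer passed without DOC replicate 1, 2, 3 or 4 or without DOC plus PMA replicate 1, 2 or 4, each in turn (0.20 to 0.24), or with no filter on dim probe sets (adjusted p = 0.0665). DOC plus PMA differed from vehicle by 0.09 (adjusted p = 0.449). The dimmer SMAD7 probe sets, near the filter level, gave 0.13 (adjusted p = 0.488) and 0.18 (adjusted p = 0.292) with PMA; the latter, 11748986_a_at, passed without the 3 arrays that deviated together (0.28, adjusted p = 0.0435).

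BAMBI encodes a pseudoreceptor, a truncated receptor that lacks the kinase domain and damps BMP and TGF-beta signals. Its only probe set (11756509_a_at) read 8.64, 8.81, 8.74 and 8.75 with vehicle, 8.56, 8.60, 8.71 and 8.68 with DOC, 8.02, 8.10, 8.22 and 8.15 with PMA, and 8.06, 8.15, 8.25 and 8.06 with DOC plus PMA. The 8 arrays with PMA lay below the other 8. BAMBI fell by 0.61 ± 0.07 with PMA alone (adjusted p = 1.90e-06) and by 0.51 ± 0.07 in the presence of DOC (adjusted p = 1.71e-05).

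DOC changed no member past the threshold. In limma, 0 of 26 probe sets passed for DOC against vehicle, 3 had an unadjusted p under 0.05, and the smallest adjusted p was 1.00. Over all probe sets 0.0744% were called, and 768 had an unadjusted p under 0.05, fewer than the 1411 that chance gives. The 95% intervals of the 26 differences ran from -0.79 to 0.49, and changes inside these bounds were not resolved. The median was -0.10, against -0.0046 for all probe sets, and 19 of 26 differences were below 0.

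The 3 probe sets with an unadjusted p under 0.05 were those of ID1, which share a target. They gave -0.25 ± 0.07, -0.29 ± 0.11 and -0.43 ± 0.17, each with an adjusted p of 1.00. The DOC arrays lay below all vehicle arrays for 11716196_x_at and 11753661_a_at and overlapped them for 11716195_a_at. On 11753661_a_at DOC replicate 1, among the arrays that deviated together, read 6.67 and the other DOC arrays 7.03 to 7.25. The DOC arrays also lay below all vehicle arrays for SMAD7 on 11725514_a_at, with a difference of -0.14 ± 0.08 that did not pass. How many of all probe sets separate in this way was not counted.

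On top of PMA, DOC also gave 0 of 26 calls (4 with an unadjusted p under 0.05; smallest adjusted p = 0.614), in a background of 0.216%. Both ID2 probe sets were higher with DOC plus PMA than with PMA in all arrays, by 0.31 ± 0.09 (adjusted p = 0.614) and 0.32 ± 0.10 (adjusted p = 0.754). With the replicate number as a block in these 8 arrays alone the adjusted p-values were 0.499 and 0.360. SMAD7 on 11725514_a_at was lower by 0.26 ± 0.08 (adjusted p = 0.759), again without overlap. The ranges separated for 3 of the 26 probe sets, and the share over all probe sets was not counted. For ID2 on 11715994_x_at the highest PMA array read 9.21 and the lowest DOC plus PMA array 9.22. ID3 on 11757404_x_at was higher by 0.18 ± 0.08 (adjusted p = 1.00), with overlapping ranges. The intervals of the 26 differences ran from -0.51 to 0.54. Averaged over both levels of PMA, DOC gave 0 of 26 calls in a background of 0.262% (6 unadjusted; smallest adjusted p = 0.488).

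The interaction asks whether the PMA difference is another one in the presence of DOC. Here 0 of 26 probe sets passed, in a background of 0.0248%, and 2 had an unadjusted p under 0.05. These were ID3 on 11757404_x_at, whose fall was smaller by 0.26 ± 0.12 with DOC, and SMAD1 on 11747501_a_at, smaller by 0.23 ± 0.10, each with an adjusted p of 1.00. The intervals of the 26 interactions ran from -0.69 to 0.94. For SMAD6 on 11730338_a_at the interaction was 0.03 ± 0.15, with a 95% interval of -0.29 to 0.35.

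**Figure D4:**
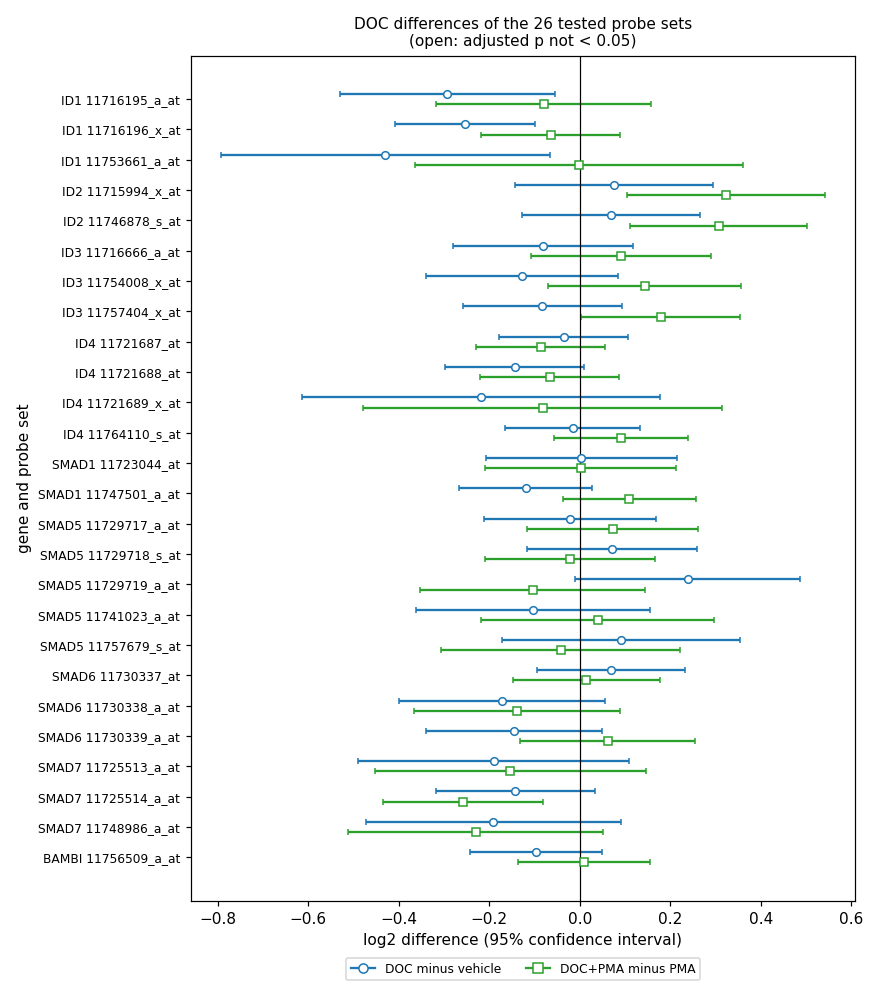
Log2 differences between DOC-treated and matched untreated groups for each tested probe set, with 95% confidence intervals; circles show DOC minus vehicle and squares DOC plus PMA minus PMA. All symbols are open because no adjusted p is under 0.05, and before adjustment 0 lies outside the circles' intervals of ID1 and outside the squares' intervals of ID2, of ID3 on 11757404_x_at and of SMAD7 on 11725514_a_at.

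The other genes of the pathway were counted in the same fit, with 1 probe set a gene. Of 88 listed genes 85 had a probe set and 69 were tested, of which 20 rose with PMA (29.0%, against 16.6% of all genes), 12 fell (17.4%, against 28.0%) and 37 did not pass. Their median difference was 0.12, against -0.04 over all genes. These shares hold for the deposited scaling. Of all called probe sets, the share that was higher was 40.1% there and 56.0% after setting the arrays to a common median. No set test was made.

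Of 9 tested BMP ligands 2 rose, 3 fell and 4 did not pass. BMP2, a ligand of the type I BMP receptors, rose by 1.46 ± 0.06 (adjusted p = 5.79e-12). BMP6, another ligand, rose by 0.42, and BMP4 and GDF6 fell (-0.46 and -0.50). In the presence of DOC, BMP2 and BMP4 kept their directions (1.33 and -0.61, both passing), whereas GDF6 gave -0.07 (adjusted p = 0.642); its interaction was 0.43 ± 0.14 (adjusted p = 1.00).

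Of 8 receptors and co-receptors 2 rose and 3 fell. ACVR1, a type I receptor, rose by 0.75, while BMPR1B, another type I receptor, fell by 0.66. The co-receptors RGMA and RGMB fell (-1.004 and -0.43), the latter not passing when its probe sets were averaged (-0.14, adjusted p = 0.141). Of 7 antagonists outside the cell 1 passed: BMPER, which binds BMPs and can damp or promote their signal, fell by 1.55 ± 0.15 (adjusted p = 4.38e-07) and by 1.08 in the presence of DOC.

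Among 18 SMAD partners and regulators 7 rose, 1 fell and 10 did not pass. SKIL and SKI, corepressors that bind SMADs, rose by 1.99 ± 0.11 (adjusted p = 5.23e-10) and 0.82, and SMURF2, a ubiquitin ligase for SMADs and their receptors, by 1.09. CTDSP1, a phosphatase of the SMAD linker, fell by 0.53. The count of genes called for DOC on top of PMA was 1 of 69: TGIF1, a SMAD corepressor named here after its values were seen, was higher by 0.51 ± 0.07 with DOC plus PMA than with PMA (adjusted p = 0.00197). For DOC against vehicle 0 of the 69 passed.

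In the activin and TGF-beta arm, which signals through SMAD2 and SMAD3, 3 of 10 genes rose and 1 fell. INHBA, the activin A subunit, rose by 3.20 ± 0.15 (adjusted p = 3.46e-11), TGFB1 by 1.199 and the receptor TGFBR2 by 0.75, and the receptor ACVR1B fell by 0.71. Other BMP target genes were divided: of 14, 5 rose and 2 fell. SNAI2, DLX2 and MSX1, transcription factors of development, rose by 0.94, 0.66 and 0.51, and GATA3 fell by 0.98 ± 0.09 (adjusted p = 1.05e-07). Of the E proteins that ID proteins bind, TCF4 fell by 0.63, TCF3 rose by 0.38 and TCF12 gave -0.05 (adjusted p = 0.736).

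**Figure D5:**
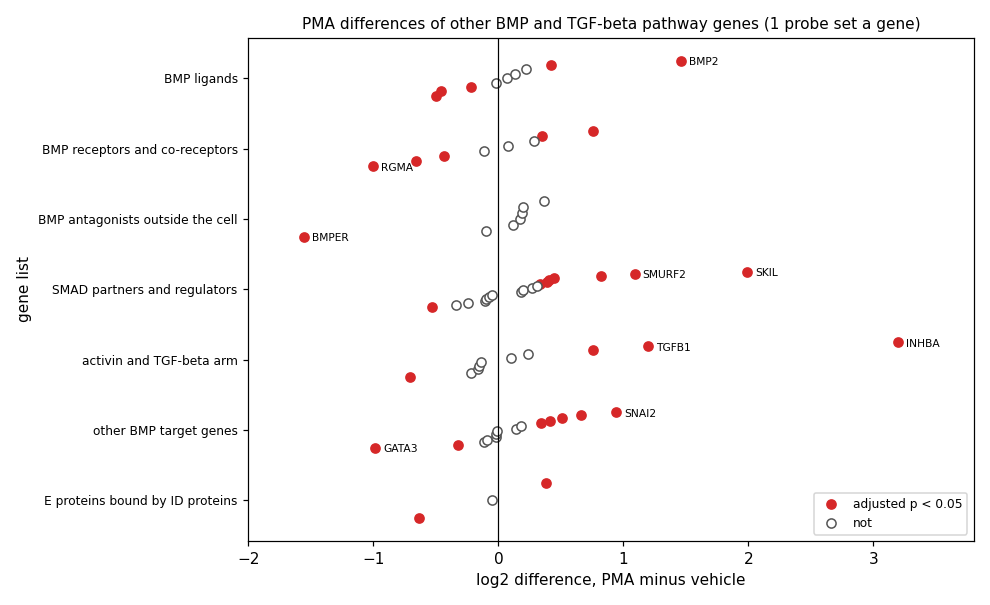
PMA-minus-vehicle log2 difference of each tested gene of the 7 pathway lists, 1 probe set a gene; filled points have an adjusted p under 0.05, and points are offset vertically for legibility only. INHBA (3.20), SKIL (1.99) and BMP2 (1.46) lie farthest right and BMPER (-1.55) farthest left.

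Genes with the most similar responses were sought over all 12495 genes by the Euclidean distance between their 3 differences from vehicle (PMA, DOC, DOC plus PMA). Nearest to ID3 were ZNF33B (distance 0.0841), SP8 (0.115) and TLCD1 (0.133). ID1 had C17orf100 (0.0418), POU3F3 (0.0449) and HEATR3 (0.0996) nearest to it. SMAD6 stood farther from its neighbours, LIPT2-AS1 (0.289), ZNF449 (0.329) and SLITRK5 (0.378). The differences share their vehicle arrays, and the distances are a description of 4 group means.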

How the data were processed

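Total RNA from 16 samples (4 groups of 4) was labelled from the 3' end and hybridised to Affymetrix PrimeView arrays, 1 array a sample. The authors deposited log2 signal values from RMA. The submitters' processing notes name Affymetrix Expression Console as the program, and its version is not given in the sources consulted. RMA corrects background, quantile-normalizes and summarises the probes, so a shift common to all genes is removed and small signals are compressed. Depth does not apply to arrays; their number limits the precision.

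Here the values were used as deposited. Genes came from the platform annotation: 44988 probe sets had 1 gene symbol, 1832 several and 2473 none. Probe sets reaching the 40th percentile of their array in 4 or more of 16 arrays were kept, 28226 of them with 1 symbol. limma 3.58.1 (R 4.3.3) fitted the 4 group means, with eBayes, and Benjamini-Hochberg adjustment ran over all 28226 in each contrast; the procedure was tested on simulated data. Each gene was represented by its brightest kept probe set (mean of 16 arrays), and 1 probe set a gene was used for the pathway lists. From each list the genes passing for PMA against vehicle with the 4 largest absolute differences were named; TGIF1 and TCF12 are exceptions. The members and lists were chosen with earlier results of these data known.

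Groups and replicate numbers came from the sample labels. Deviations from the group means correlated between same-numbered PMA and DOC plus PMA arrays (0.157 to 0.549, 4 of 4 pairs over 0.1). Other group pairs reached 3 of 4 at most. The numbers of PMA and DOC plus PMA arrays were therefore taken as pairs, from the data alone. Replicate 2 of both groups is among the 3 arrays that deviated together. Differently numbered arrays of these groups were not compared, so the pairing is an assumption. Probe sets of 1 gene were compared within arrays by an exact permutation test and, as an addition, by limma over 15709 pairs (22 pairs with identical values left out). Alternatives covered the scaling, the filter, the probe set rule, the variance model, array weights, the replicate block and leaving out arrays. Upstream sequences were read from RefSeq (GRCh38.p14).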

Additional observations from a re-analysis of the deposited data

Results flagged for a closer look

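In 12 of 104 groups of 4 arrays (26 probe sets in 4 groups), 1 array lay apart from the other 3, its gap to the nearest, as a share of the group's range, exceeding Dixon's 95% critical value; chance gives about 1 in 20. Of the 12, 8 fell on the 3 arrays that deviated together. DOC plus PMA replicate 2 was low on 2 probe sets of ID1 (6.69 on 11716195_a_at and 6.38 on 11753661_a_at) and 2 of ID3 (6.57 on 11716666_a_at and 6.20 on 11754008_x_at). DOC replicate 1 was high for ID4 on 11721687_at (10.65) and low for ID4 on 11721689_x_at (6.43). PMA replicate 2 was high for SMAD5 on 11757679_s_at (9.15) and for SMAD7 on 11725514_a_at (8.31).

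The other 4 fell on different arrays. PMA replicate 1 was low for ID2 on 11746878_s_at (8.85), where the other 3 PMA arrays read 9.18 to 9.21. Vehicle replicate 1 was low for SMAD5 on 11729718_s_at (7.69), and vehicle replicate 4 for SMAD6 on 11730337_at (3.92). DOC replicate 3 was low for SMAD6 on 11730338_a_at (7.36), with the other 3 DOC arrays at 7.45.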

How the results depend on the processing

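No member difference that passed reversed in any alternative. Over the settings that kept the probe set as the unit, the count of member calls ran from 22 to 24 for PMA against vehicle, from 19 to 21 for DOC plus PMA against DOC and from 21 to 22 for DOC plus PMA against vehicle. With 1 probe set a gene, where 9 members are tested, the counts were 9, 9 and 8, and with averaged probe sets 9, 8 and 8. With the replicate block the counts were 23, 21 and 22, and 0 for each DOC contrast and the interaction. In the DOC contrasts 0 members passed under every alternative run, with smallest adjusted p-values of 0.344 (DOC against vehicle), 0.166 (DOC plus PMA against PMA), 0.173 (both levels averaged) and 0.957 (interaction). The call of a member probe set changed in 1 of 638 alternative values for PMA against vehicle and in 15 of 638 for DOC plus PMA against DOC, all of them for ID1, SMAD5 and SMAD7 probe sets given in the results. In the within-array comparison of probe sets, the exact test passed 0 of 30 pairs and limma 4 of 17; for the change of SMAD6 11730338_a_at minus that of 11730337_at and minus that of 11730339_a_at, limma gave -2.11 and -1.203, past the threshold. With same-numbered arrays paired, the exact sign-flip test cannot go below 0.125. The dimmer SMAD6 and SMAD7 probe sets and SMAD9 lie near or below the filter level, where RMA signals limit what can be measured.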
